A study of Canis lupus familiaris with 12 samples.

Results

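ATF3, ATF4, DNAJB2, MT1X and MT2A, genes of cellular stress and metal handling, are described here across cells transfected with Snail, Slug or E47. They were taken by their symbol in the platform's probe table, which gave 8 probes of 13056 and 5 genes of the 4325 that have at least 1 probe with a single symbol. The genes were picked with their ratios against the control already known, so those ratios are given as a description, without a test, and support nothing further. All were measured in the MDCK line, epithelial cells of dog kidney, with total RNA of a transfectant and of MDCK-CMV control cells hybridised together on 2-colour arrays. The probes are cDNA clones named for human genes. Each transfectant has samples numbered 1 and 2. Each sample was hybridised on an array titled Cy5, where the transfectant carries that dye, and on an array titled Cy3, where the dyes are exchanged. This makes 4 arrays a transfectant and 12 in all. The labels do not give the constructs, the promoter that drives each factor beyond the name CMV of the control, whether a transfectant is 1 clone, or whether samples 1 and 2 came from separate cultures. Any p-value therefore measures only the spread between these samples.

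ATF4 is the transcription factor of the integrated stress response. Kinases that sense amino acid or heme shortage, double-stranded RNA or unfolded protein in the endoplasmic reticulum phosphorylate the initiation factor eIF2, which lowers translation in general and raises that of ATF4 messenger RNA. ATF3 is a basic leucine zipper (bZIP) factor of the same wider family, induced by many stresses and known as a target of ATF4. DNAJB2 is a J-domain co-chaperone that works with HSP70 proteins and binds ubiquitinated clients. MT1X and MT2A are metallothioneins, small cysteine-rich proteins that bind zinc, copper and cadmium and whose genes are switched on by metals, through the zinc-sensing factor MTF1, and by glucocorticoids. Snail and Slug are zinc finger repressors and E47 a helix-loop-helix factor, all known to repress CDH1, the E-cadherin gene.

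The arrays held values for 10654 to 12982 probes. The deposited ratio has no stated numerator, and its sign did not follow the dyes. As deposited, the arrays of a transfectant correlated with a mean r of 0.48 in the 7 pairs of like orientation and of -0.51 in the 11 pairs of opposite orientation. The pairs were sorted by the turning described next, so these r describe it and are no separate test of it. Values of 5 arrays were multiplied by -1, namely both of sample Snail 2, both of sample Slug 1, and of sample E47 2 the one titled Cy5. The signs were set so that CDH1 lies below the control everywhere. Its mean log2 ratios are then -2.07 (Snail), -2.46 (Slug) and -2.07 (E47). Directions against the control are assumed from this and not settled by the labels. With the sign of a transfectant turned, all its higher and lower values below exchange. Which genes lie on the side of CDH1 does not depend on the sign, as it can be read on each array as deposited. A ratio holds no level, so whether epithelial markers are present cannot be read here. Of 10 or 11 markers of simple and tubule epithelia tested, Snail had 4 lower and E47 3 lower (adjusted p under 0.05 in limma). Slug had 4 lower and 1 higher, JUP at 0.82. These are 40% in Snail, 45.5% in Slug and 30% in E47, beside 7.22%, 21.8% and 5.3% of all genes. CDH1, which set the signs, is among the lower ones. KRT8, KRT18, CDH16, CLDN1 and EPCAM passed in no transfectant. The EPCAM mean was nevertheless low, at -1.59 in Snail, -1.87 in Slug and -1.53 in E47, with a wide SE of 0.74 in each.

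ATF4 lay on opposite sides in the transfectants. On the Snail arrays its log2 ratio was -0.94 (sample 1, titled Cy3), -1.12 (sample 1, Cy5), -0.86 (sample 2, Cy3) and -0.88 (sample 2, Cy5). The E47 arrays gave -0.73, -0.61, -0.48 and -0.79 in the same order. On the Slug arrays it was 0.76, 0.84, 0.51 and 1.11. All 8 arrays of Snail and E47 were thus below the control and all 4 Slug arrays above it. Sample means were -0.95 ± 0.11 in Snail (SD, n = 2 samples), 0.81 ± 0.01 in Slug and -0.65 ± 0.03 in E47, which is 1.93-fold lower, 1.75-fold higher and 1.57-fold lower than the control. Read against CDH1 with no sign assumed, ATF4 was on the side of CDH1 on 4 of 4 Snail arrays and 4 of 4 E47 arrays, and opposite to CDH1 on 4 of 4 Slug arrays. Snail and Slug were 1.76 apart on the log2 scale, a 3.38-fold difference, and their nearest arrays were separated by 1.38. Slug and E47 were 1.46 apart, with 1.0 between the nearest arrays. Snail and E47, neighbours in the order of the levels, differed by 0.30 with 0.08 between the nearest arrays, a gap smaller than the range within the Snail arrays.

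The ATF4 clone has 2 spots on each array, and they are close. Probes 6224 and 6857 lay on the same side on 12 of 12 arrays, with a median difference of 0.07, where the median over 2093 clones with 2 spots was 0.28. The largest difference, 0.64, was on the Slug 2 array titled Cy3, where probe 6224 gave 0.19 and probe 6857 gave 0.83. By the median difference, the ATF4 spots were closer than those of ATF3 or DNAJB2.

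ATF3, the stress-induced factor downstream of ATF4, lay above the control on all Slug arrays, at 1.01 and 1.13 in sample 1 (titled Cy3, then Cy5) and 0.97 and 1.11 in sample 2. In E47 it gave -0.07, 0.44, 0.23 and 0.40. The Snail arrays were at -0.66, -0.33, -0.08 and 0.26. Slug stood apart from both others with no overlap, while the arrays of Snail and E47 overlapped. Sample means were 1.05 ± 0.02 in Slug (SD, n = 2 samples; 2.08-fold), 0.25 ± 0.09 in E47 and -0.20 ± 0.41 in Snail, where the samples had -0.50 and 0.09 and so fell on both sides of 0. The order of the levels was Slug, E47, Snail. The last 2 of them differed by 0.45, about the SD of the Snail samples.

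Behind the narrow spread of ATF3 in Slug, the spots of its clone were wide apart. On the Slug 2 array titled Cy5 probe 1099 gave 1.71 and probe 11902 gave 0.51, the largest difference of the clone (1.20). On the Slug 1 array titled Cy3 they gave 1.47 and 0.54. On the other Slug arrays the second probe was the higher one, with 1.24 against 1.01 and 1.18 against 0.76. All 8 spot values in Slug were above 0, from 0.51 to 1.71. Over the 12 arrays the 2 spots had a median difference of 0.39 and were on the same side on 10. The SD of 0.02 between the Slug samples is thus far below the difference between spots of 1 array.

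**Figure D1:**
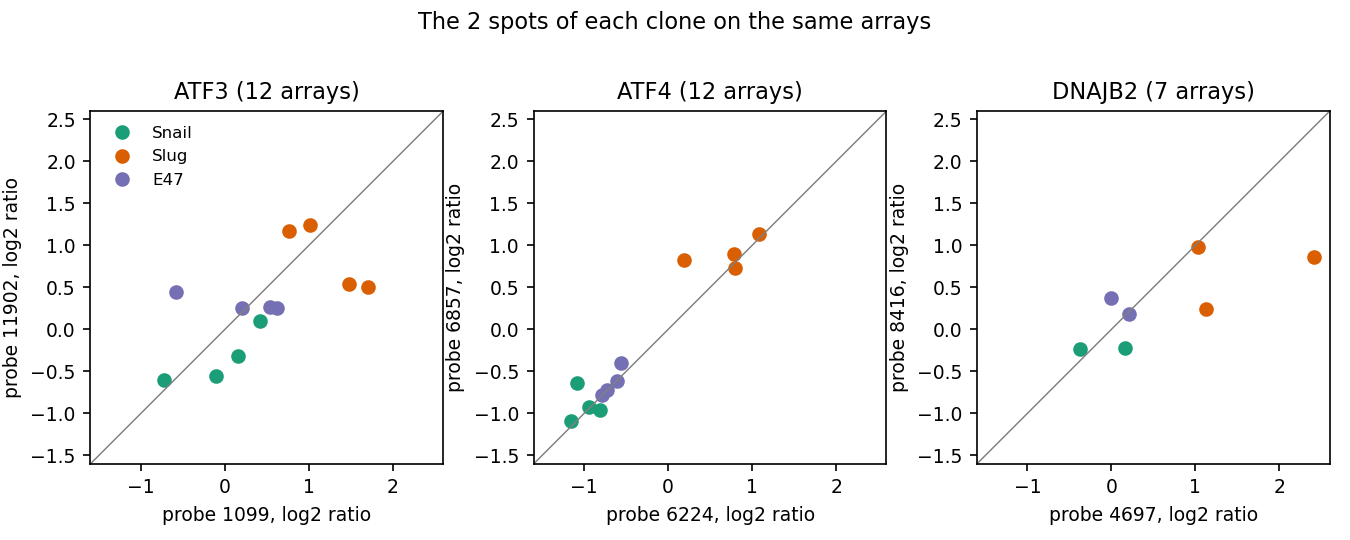
Log2 ratio (transfectant over control, assumed direction) of the 2 spots of the ATF3, ATF4 and DNAJB2 clones, with 1 point for each array that has both values, coloured by transfectant; the grey line marks equal values. ATF4 points lie near the line (median difference 0.07), ATF3 and DNAJB2 points scatter more (0.39 and 0.38).

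DNAJB2, the J-domain co-chaperone, had the order of ATF3 and ATF4. The Slug arrays gave 1.00 and 0.69 in sample 1 (Cy3, then Cy5) and 1.63 and 0.95 in sample 2. On the Snail arrays it was -0.46, -0.43, -0.03 and -0.30. E47 gave 0.19, 0.20 and 0.19 on 3 arrays, and neither spot had a value on the E47 1 array titled Cy5. The arrays of the 3 transfectants did not overlap, with Slug highest and Snail lowest. Sample means were 1.07 ± 0.31 in Slug (SD, n = 2 samples; 2.10-fold) and -0.30 ± 0.20 in Snail. E47 rests on sample 2 alone (0.19), since a sample value needed both its arrays.

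DNAJB2 is also the least complete member. Probe 4697 lacked 1 of 12 values and probe 8416 lacked 5, so 7 arrays had both spots, and on 5 of these the spots were on the same side. On the Slug 2 array titled Cy3 probe 4697 gave 2.41 and probe 8416 gave 0.86, a difference of 1.55. The value of 1.63 on that array, the highest of DNAJB2, is the mean of those readings. The near-equal E47 values also hide spots apart: on E47 2 titled Cy5 they were at 0.00 and 0.38. The Slug 2 array titled Cy5 (0.95), both Snail 1 arrays and the E47 1 array titled Cy3 rest on probe 4697 alone.

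**Figure D2:**
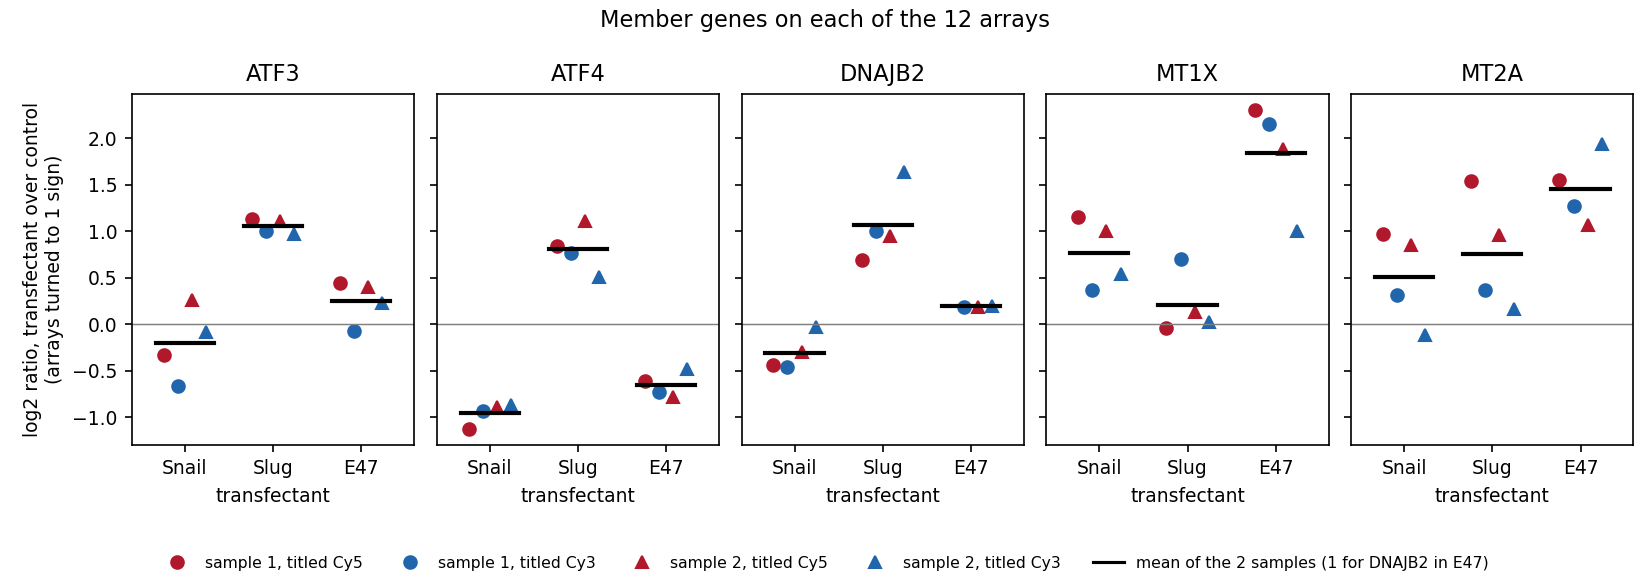
Log2 ratio of each member (transfectant over control, assumed direction) on the 12 arrays, by transfectant; circles are sample 1, triangles sample 2, red arrays titled Cy5, blue arrays titled Cy3, and bars the mean of the samples. ATF4 is below 0 on all Snail and E47 arrays and above 0 on all Slug arrays; MT1X and MT2A are highest in E47.

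The metallothioneins were ordered otherwise, with E47 highest for both and Snail and Slug exchanged between them. MT1X gave 2.15 and 2.31 in E47 sample 1 (Cy3, then Cy5) and 1.01 and 1.88 in sample 2. In Snail it gave 0.36, 1.16, 0.54 and 1.00. The Slug arrays were at 0.70, -0.04, 0.02 and 0.13. MT1X was above the control on 8 of 8 arrays of E47 and Snail and on 3 of 4 Slug arrays. Sample means were 1.84 ± 0.56 in E47 (SD, n = 2 samples; 3.57-fold), 0.77 ± 0.01 in Snail (1.70-fold) and 0.21 ± 0.18 in Slug. E47 and Slug arrays were separated by 0.30. E47 overlapped with Snail through the E47 2 array titled Cy3, and Snail overlapped with Slug. Neighbours in the order of MT1X are thus not set apart by their arrays. In E47 only 15 of 3966 genes with both samples had a higher mean than MT1X.

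MT2A gave 1.28 and 1.56 in E47 sample 1 and 1.94 and 1.06 in sample 2. The Slug arrays gave 0.37, 1.54, 0.17 and 0.96, and those of Snail 0.32, 0.97, -0.12 and 0.85. It was above the control on 4 of 4 arrays of E47 and of Slug and on 3 of 4 of Snail. Sample means were 1.46 ± 0.06 in E47 (SD, n = 2 samples; 2.75-fold), 0.76 ± 0.28 in Slug and 0.51 ± 0.20 in Snail. E47 lay above Snail by 0.95, with 0.09 between the nearest arrays, and overlapped with Slug. Slug and Snail differed by 0.25, less than the SD of the Slug samples.

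The dye moved with MT2A. In Slug the arrays titled Cy5 averaged 1.25 and those titled Cy3 0.27; in Snail these means were 0.91 and 0.10. Each Cy5 array of these transfectants was above each Cy3 array, in both samples, although the samples ran in opposite orientation as deposited. In E47 the samples disagreed: sample 1 was higher titled Cy5 (1.56 against 1.28), as in the other transfectants, and sample 2 was higher titled Cy3 (1.94 against 1.06), for means of 1.31 and 1.61. MT1X in Snail showed the same as MT2A, with 1.08 on arrays titled Cy5 and 0.45 on those titled Cy3. The part of the dye in these results was not tested beyond these means. Both metallothioneins were above 0 with either dye in all 3 transfectants by these means, the lowest being 0.05 for MT1X in Slug titled Cy5.

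MT1X and MT2A have 1 spot each, so no second reading of the clone exists. Other metallothionein probes on the arrays were nearer to 0 in E47. MT1E (probe 9370), named like MT3 for its family and not by rank, was between 0.03 and 0.50 on the E47 arrays, where MT1X was between 1.01 and 2.31. Its mean passed in Slug at 0.46 ± 0.20 (SD, n = 2; adjusted p = 0.0421 in limma), and it was 0.26 in E47 and 0.07 in Snail. Without Slug replicate 1 the MT1E value was 0.32 and without Slug replicate 2 it was 0.60, and the call was lost in both cases (adjusted p of 0.0676 to 0.322). MT3, the neuronal metallothionein, did not pass in any, with 0.26 in Snail, -0.12 in Slug and 0.29 in E47. The pseudogene MT1P3, added here after its values were seen, has 2 clones that disagree. In Slug the first clone gave means of 1.01 and 0.91 on its spots (probes 1595 and 11486), and the second clone 0.01 and -0.03 (probes 2494 and 10555). In E47 the 4 spots had means from 0.18 to 0.33. RefSeq's dog gene table (UU_Cfam_GSD_1.0) lists MT1X as a synonym of MT1E and MT1H as one of MT2A, and names MT4 as a further member. Which dog transcript each human metallothionein clone reads was not tested, and clones of related family members can share signal.

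**Figure D3:**
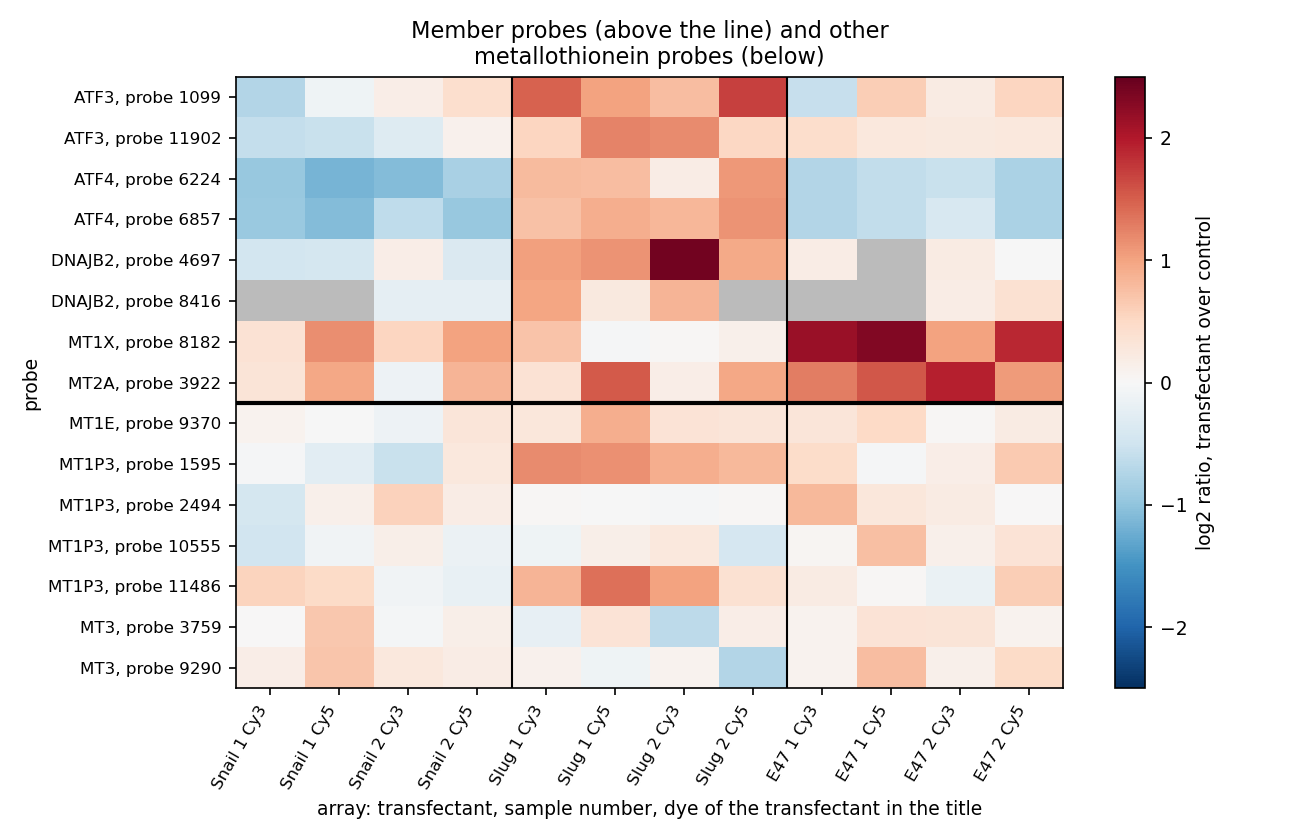
Log2 ratio (transfectant over control, assumed direction) of the 8 member probes and of 7 further metallothionein probes, in rows, on the 12 arrays, in columns grouped by transfectant; red is above the control, blue below, grey a missing value. The MT1X and MT2A rows are deepest red in E47, where the means of MT1E and MT3 were 0.26 and 0.29.

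The combination of members above and below the control differed by transfectant, with no test of the difference. In Snail, ATF4 and DNAJB2 were below the control on 4 of 4 arrays and MT1X above on 4 of 4; that is 3 of 5 members with all arrays on 1 side, where 36.3% of 3768 genes were so, 12.1% above and 24.1% below. In Slug, 4 of 5 members were above on all 4 arrays and none below, where 41.5% of 4053 genes lay on 1 side, 22.3% above and 19.2% below. In E47, 3 of the 4 members with all arrays were on 1 side, both metallothioneins above and ATF4 below, where the share of 3966 genes was 32.5%, with 18% above and 14.5% below. ATF4 and MT1X were on opposite sides on 4 of 4 arrays of Snail and of E47, and on the same side on 3 of 4 Slug arrays, which holds whatever the sign. ATF4 and DNAJB2 were on the same side on all 8 arrays of Snail and Slug and on opposite sides on 3 of 3 in E47. Because the choice of the members used these contrasts, nothing is read from the counts.

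Between transfectants, the arrays of Snail and Slug did not overlap for 3 of 5 members, ATF3, ATF4 and DNAJB2, all higher in Slug; over 3675 genes the share was 22.6%, with Snail higher in 7.48% and lower in 15.1%. Slug and E47 did not overlap for 3 of 4 members with all arrays, ATF3 and ATF4 being higher in Slug and MT1X in E47, where the share of 3816 genes was 12.7%, with Slug higher in 6.26% and lower in 6.39%. Snail and E47 did not overlap for 2 of 4, ATF4 and MT2A, both higher in E47, against 20.1% of 3617 genes, with Snail higher in 5.11% and lower in 15%. DNAJB2, with 3 E47 arrays, is left out of both counts and did not overlap in either. These comparisons share arrays, and those with the control share its RNA.

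The genes most like each member over the 12 turned arrays were sought among 3533 genes with a value on all of them. Arrays of a sample share its RNA, and all share the control and the turning, so r is a description. ATF3 was closest to QSOX1, a sulfhydryl oxidase (r = 0.99), and BCL6, a transcriptional repressor (0.97). BCL6 had nearly the same mean ratios as ATF3, at -0.14 in Snail, 1.03 in Slug and 0.40 in E47. ATF4 was closest to FBXO7, an F-box protein (0.97), and CCN1, a matricellular protein (0.95). Both had their high values in Slug (1.76 and 1.44) but not the low values of ATF4, with -0.14 and -0.05 in Snail and 0.23 and 0.27 in E47. DNAJB2 over 11 arrays was closest to CDK16 (0.95) and CHD3 (0.95). MT1X was closest to GAS7 (0.91; 0.93 in E47) and TFAP2C (0.90), and MT2A to ST3GAL5 (0.82) and TYSND1 (0.80), whose E47 means of 0.28 and 0.40 were far below that of MT2A. No gene among the 3533 came as near to MT2A as to the other members by this measure. Among the members, ATF3, ATF4 and DNAJB2 correlated with one another with r between 0.87 and 0.90, and MT1X with MT2A with 0.44. These depend on the turning: as deposited, r was 0.53 for ATF3 with ATF4, 0.93 for ATF3 with DNAJB2, 0.62 for ATF4 with DNAJB2 and 0.79 for MT1X with MT2A, so the metallothionein pair was then above 2 of the 3 others.

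Genes of the surrounding pathways, without the 5 members, were then tested in 7 lists covering bZIP factors, the integrated stress response, chaperones of the endoplasmic reticulum, heat shock proteins with co-chaperones, metal handling, oxidative defence, and stress kinases with growth arrest genes. Of 323 listed genes 137 have a named probe. With limma and Benjamini-Hochberg adjusted p under 0.05, 29 of 130 passed in Slug, 18 higher and 11 lower (21.8% of all 4053 genes passed, 12.2% higher and 9.62% lower). In Snail 7 of 127 passed, 2 higher and 5 lower (7.22% of 3768, 2.15% higher and 5.07% lower), and in E47 8 of 128, 6 higher and 2 lower (5.3% of 3966, 3.81% higher and 1.49% lower). The shares of the lists were thus near those of all genes in each transfectant. The list medians were 0.13 in Slug, -0.05 in Snail and 0.01 in E47, beside 0.02, -0.05 and 0.01 over all genes. After scaling the arrays to 1 spread the Slug count was 13, 8 higher and 5 lower, and the Snail count 9, 4 higher and 5 lower. The 13 Slug calls that held under scaling were JUND, NFIL3, DDIT4, EIF2S1, P4HB, CCT2, SERPINH1, CCT5, HSPA4, CCT7, GSTO1, PRDX1 and MAPKAPK2. Of the Slug calls named in the next paragraphs, those of JUNB, VLDLR, GARS1, WARS1, EIF2AK2, SOD1, MAP2K4 and MAPKAPK3 were lost under it (adjusted p of 0.0538 to 0.125 in limma).

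**Figure D4:**
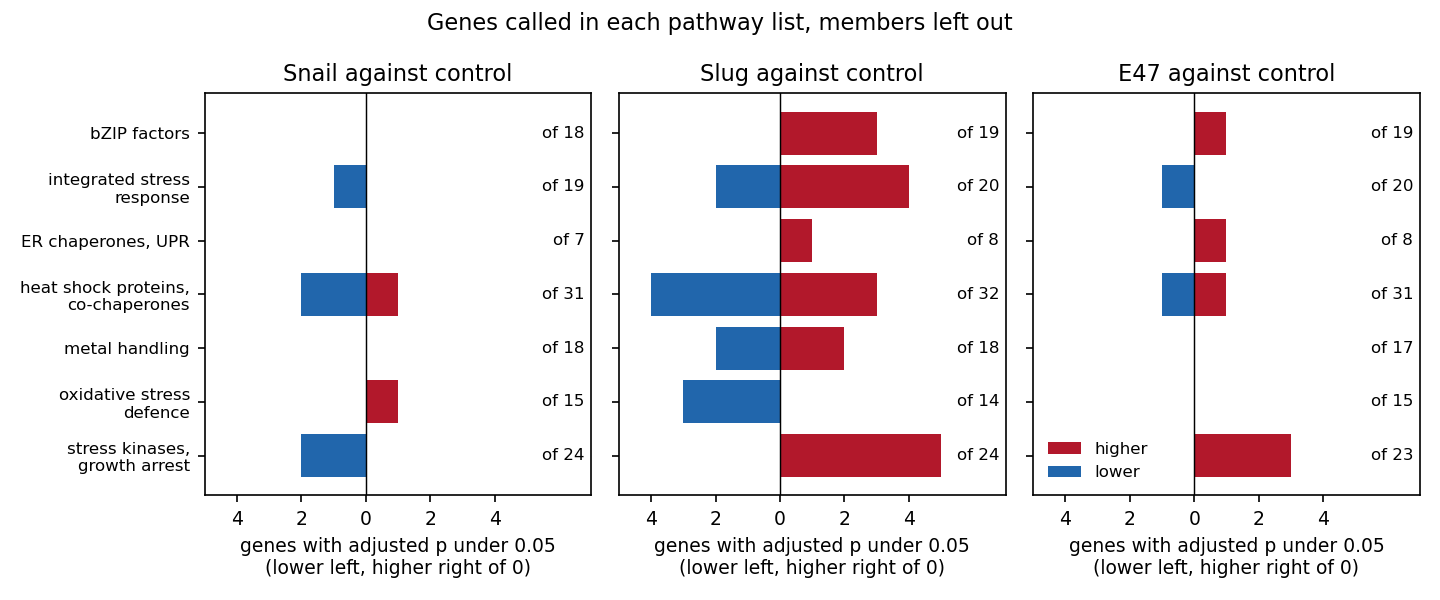
Number of genes with adjusted p under 0.05 (limma) in each pathway list, without the members, in the comparison of each transfectant with the control; red bars to the right are higher, blue bars to the left lower (assumed direction), and the text gives the genes tested. Slug has calls in all 7 lists; Snail and E47 have at most 3 in a list.

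Among bZIP factors, relatives and partners of ATF3 and ATF4, 3 of 19 rose in Slug and none fell, with a list median of 0.12. That is 15.8%, beside 21.8% of all genes. JUND, an AP-1 subunit, rose by 1.50 ± 0.12 (SE, n = 2; adjusted p = 6.91e-04 in limma), NFIL3, a bZIP repressor, by 1.32 ± 0.18 (adjusted p = 0.00287) and JUNB, another AP-1 subunit, by 1.21 ± 0.30 (adjusted p = 0.0257). JUNB differed between the Slug samples, at 1.97 and 0.44 (SD 1.08, which the pooled SE of 0.30 does not show), and lost its call without Slug replicate 1. In E47, 1 of 19 passed, JUND, higher by 0.74 ± 0.12 (adjusted p = 0.0153), a call lost without either E47 replicate (0.85 and 0.63). None of 18 passed in Snail with limma, 5 having an unadjusted p under 0.05. Of other ATF genes, ATF5 was at 0.06, 0.13 and 0.08 in Snail, Slug and E47, and ATF2 at -0.43, -0.31 and -0.18. ATF6 was at 0.10, -0.47 and -0.14 in the same order, and ATF7 at 0.22, -0.42 and 0.04. None of these ATF genes passed the test, and all are named here after their values were seen.

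In the integrated stress response list, 6 of 20 passed in Slug, 4 higher and 2 lower (median 0.14). DDIT4, an inhibitor of mTORC1 known as an ATF4 target, rose by 1.68 ± 0.14 (SE, n = 2, adjusted p = 8.08e-04 in limma). DDIT4 was at 0.26 in E47, with no call. In Snail only sample 2 had a value on both arrays (0.42), so DDIT4 was not tested there. ATF4 was below the control in both of these transfectants. VLDLR, a lipoprotein receptor, rose in Slug by 1.17 ± 0.31 (adjusted p = 0.0328 in limma). EIF2S1, the eIF2 subunit whose phosphorylation favours ATF4 translation, fell to -1.19 ± 0.14 (adjusted p = 0.0020). EIF2S1 also fell in E47, to -0.66 ± 0.14 (adjusted p = 0.0392 in limma), and was -0.03 in Snail. These are RNA ratios, which do not measure phosphorylation or translation, and a link with ATF4 was not tested. The other calls in Slug were GARS1 and WARS1, aminoacyl-tRNA synthetases (0.97 and 0.64), and EIF2AK2, the kinase PKR (-0.62), these 3 named after their values were seen. The only gene that passed in Snail was CTH, an enzyme of cysteine synthesis, at -0.75 ± 0.14 (adjusted p = 0.0166; 1 of 19, median -0.04), and in E47 EIF2S1 was the only one of 20 (median -0.05). The VLDLR call was lost without Slug replicate 1 (0.90) or 2 (1.44), that of CTH without Snail replicate 2 (-0.54), and that of EIF2S1 in E47 without E47 replicate 1 (-0.62) or 2 (-0.70). GARS1, WARS1 and EIF2AK2 lost theirs without Slug replicate 1, and GARS1 and EIF2AK2 also without replicate 2.

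Of the endoplasmic reticulum list 1 of 8 passed in Slug and in E47 (medians 0.23 and -0.02), in both P4HB, a protein disulfide isomerase, at 0.69 ± 0.13 (SE, n = 2; adjusted p = 0.0092 in limma) and 0.73 ± 0.13 (adjusted p = 0.0199). P4HB lost its call without Slug replicate 1 (0.65) and without either E47 replicate (0.64 and 0.82). None of 7 passed in Snail, nor had any an unadjusted p under 0.05 with limma. XBP1, a bZIP factor of the unfolded protein response that stands in this list too, was at -0.01, 0.28 and 0.01 and did not pass, named after its values were seen.

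Heat shock proteins and co-chaperones, the wider functional list around DNAJB2, went both ways. In Slug 3 of 32 rose and 4 fell (median 0.08), with CCT2, a subunit of the TRiC chaperonin, at -1.27 ± 0.15 (SE, n = 2; adjusted p = 0.0017 in limma), SERPINH1, the collagen chaperone, at 0.96 ± 0.14 (adjusted p = 0.0041) and CCT5, another TRiC subunit, at 0.82 ± 0.15 (adjusted p = 0.0077). In Snail 1 of 31 rose, SERPINH1 (0.97 ± 0.14, adjusted p = 0.0071), and 2 fell (median -0.14). These were DNAJA2, a J-domain co-chaperone (-0.78 ± 0.14, adjusted p = 0.0146), and CCT4 (-0.56 ± 0.13, adjusted p = 0.0460). In E47 SERPINH1 (0.75) and CCT2 (-0.77) passed among 31 (median 0.00). Of the J-domain genes tested beside DNAJB2, none passed in Slug, where DNAJB2 was highest: DNAJA1 had 0.56, DNAJB1 0.08 and DNAJB6 -0.17, named after their values were seen. CCT5 lost its call without Slug replicate 1 (0.73). In Snail the call of SERPINH1 was lost without replicate 2 (0.80) and those of DNAJA2 and CCT4 without either. In E47 SERPINH1 lost its call without either replicate (0.91 and 0.59) and CCT2 without replicate 2 (-0.50).

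Of the metal handling genes, which surround MT1X and MT2A, none of 17 passed in E47 with limma, where both metallothioneins were highest, and none had an unadjusted p under 0.05 (median 0.03). None of 18 passed in Snail, 4 of them with an unadjusted p under 0.05 (median -0.01). In Slug 4 of 18 passed (median 0.09): SLC30A6, a zinc transporter (-0.65 ± 0.15, SE, n = 2; adjusted p = 0.0190), ATP7A, the copper pump (-0.58 ± 0.15, adjusted p = 0.0287), SLC39A14, a zinc and iron importer (0.57 ± 0.13, adjusted p = 0.0188), and MT1E. The calls of ATP7A and SLC39A14 were lost without Slug replicate 1 or 2, and that of SLC30A6 without replicate 2 (-0.49). With the arrays scaled to 1 spread all 4 Slug calls of this list were lost, at adjusted p of 0.0548 for SLC30A6, 0.0867 for ATP7A, 0.0644 for SLC39A14 and 0.103 for MT1E. MTF1, the metal-sensing activator of metallothionein genes, named after its values were seen, was at -0.28 in Snail, 0.27 in Slug and 0.03 in E47, with no call. HMOX1, heme oxygenase, a gene of metal and oxidative stress, was at -0.05, 0.13 and 0.03 in the same order, with no call, and was singled out in the same way.

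Oxidative defence genes passed only downward in Slug, 3 of 14 (median -0.20): GSTO1, a glutathione transferase (-1.08 ± 0.15, SE, n = 2; adjusted p = 0.0032 in limma), PRDX1, a peroxiredoxin (-0.98 ± 0.14, adjusted p = 0.0040), and SOD1, a superoxide dismutase (-0.46 ± 0.14, adjusted p = 0.0495). In Snail GSTA4, another glutathione transferase, rose by 0.76 ± 0.17 (adjusted p = 0.0425; 1 of 15, median 0.04), and in E47 none of 15 passed, 4 having an unadjusted p under 0.05 (median -0.11). The calls of SOD1 and GSTA4 were lost without either replicate of their transfectant. The 3 of 14 in Slug are 21.4%, beside 21.8% of all genes, 12.2% higher and 9.62% lower.

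Stress kinases and growth arrest genes passed only upward in Slug, 5 of 24 (median 0.19), and in E47, 3 of 23 (median 0.10). In Snail they passed only downward, 2 of 24 (median -0.09). The shares were 20.8% in Slug, 13.0% in E47 and 8.33% in Snail, beside 21.8%, 5.3% and 7.22% of all genes. Over all genes, 12.2% were higher and 9.62% lower in Slug. In E47 3.81% were higher and 1.49% lower, and in Snail 2.15% and 5.07%. In Slug MAPKAPK2, a kinase activated by p38, rose by 0.96 ± 0.14 (SE, n = 2; adjusted p = 0.0038 in limma), MAP2K4, an activator of JNK and p38, by 0.85 ± 0.17 (adjusted p = 0.0126) and MAPKAPK3 by 0.72 ± 0.15 (adjusted p = 0.0144). In E47 they were MAPK9, the kinase JNK2 (0.78), MAP2K4 (0.77) and MAPKAPK3 (0.73). In Snail MAP3K5, the kinase ASK1 (-1.13 ± 0.25, adjusted p = 0.0384), and BTG1, an antiproliferative gene (-1.03 ± 0.12, adjusted p = 0.0038), fell. Among these, MAP2K4 in Slug lost its call without replicate 2 (0.66), BTG1 without Snail replicate 2 (-1.08), and MAPKAPK3 in Slug, the E47 calls and MAP3K5 without either replicate of their transfectant.

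With each replicate of the transfectant left out in turn, 9 of the 29 Slug calls held both times: JUND, NFIL3, DDIT4, EIF2S1, CCT2, SERPINH1, GSTO1, PRDX1 and MAPKAPK2. None of the 7 Snail calls and none of the 8 E47 calls held both times. Without Slug replicate 1 the Slug count was 12, without Snail replicate 1 the Snail count was 4 and without replicate 2 it was 0, and without E47 replicates 1 and 2 the E47 counts were 2 and 0 (limma; 22 genes had an unadjusted p under 0.05 without Snail replicate 2 and 11 without E47 replicate 2).

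**Figure D5:**
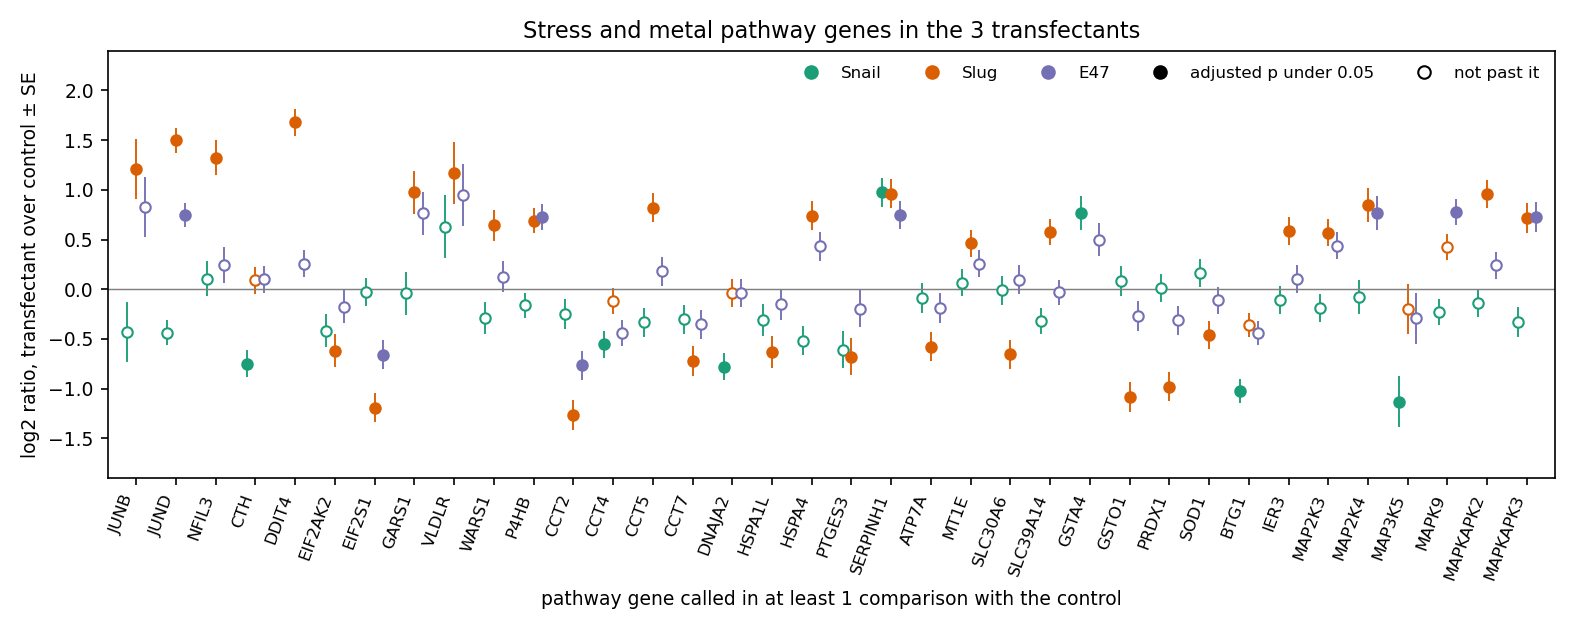
Mean log2 ratio (transfectant over control, assumed direction) ± SE from limma of the pathway genes with adjusted p under 0.05 in at least 1 comparison with the control; filled points are past that threshold, open points are not, and colours give the transfectant. DDIT4 and JUND are highest in Slug (1.68 and 1.50), and CCT2 and EIF2S1 lowest (-1.27 and -1.19).

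Tested between transfectants, 20 of 124 pathway genes differed between Snail and Slug, 4 higher and 16 lower in Snail (13.2% of all 3675 genes passed in limma, 4.08% higher and 9.14% lower). Between Snail and E47 4 of 122 differed, all lower in Snail (2.57% of 3617, 0.166% higher and 2.41% lower), and between Slug and E47 1 of 124, DDIT4, which was higher in Slug (0.786% of 3816, 0.262% higher and 0.524% lower), a call lost when any 1 of the 4 samples compared was left out. In Snail against Slug the stress kinase list had 5 of 24, the heat shock list 4 of 30, the bZIP and integrated stress response lists 3 of 18 each, metal handling 2 of 18, oxidative defence 2 of 14 and the endoplasmic reticulum list 1 of 7. JUND was at -0.44 in Snail, 1.50 in Slug and 0.74 in E47, the order of ATF3, ATF4 and DNAJB2. It was the only gene whose Snail against Slug call held without each of the 4 samples of that comparison. All 3 comparisons depend on the relative sign set for the pair. With Slug turned, Snail against Slug again gave 20 calls, of which 9 were shared, and Slug against E47 gave 36. With E47 turned, Snail against E47 gave 9 calls, none shared. Without Slug replicate 1 the Snail against Slug count was 5, without replicate 2 12, and without Snail replicates 1 and 2 it was 6 and 5.

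Each of the 4 Snail against E47 calls was lost when any 1 of the 4 samples of that comparison was left out.

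Markers of other cell types were tested with limma in the same way. Among 8 or 9 leukocyte markers none passed in Snail or E47 (1 in each with an unadjusted p under 0.05) and 1 rose and 2 fell in Slug, which is 37.5% of 8 beside 21.8% of all genes. Of 8 or 9 endothelial markers none passed in Snail or E47 (2 and 1 with an unadjusted p under 0.05) and 3 rose in Slug, which is 33.3% of 9 beside the same 21.8%. Their part in the values of the 5 genes was not tested.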

How the data were processed

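Per the labels, RNA of 6 numbered samples (Snail, Slug and E47, 2 each) and of control cells was hybridised on 12 arrays. The authors deposited log2 ratios of the 2 channels for 13056 probes, centred near 0. How background was corrected and why cells are empty is not given here. The base was checked: 2 to the power of the values gives whole thousandths (100% of those examined, tolerance 6e-05 in log2). Signal over background was not used here; precision is limited by the number of arrays.

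Of the probes, 8047 have 1 symbol, 276 several (left out) and 4733 none. After turning 5 arrays, spots of a clone were averaged, then clones of a gene, then the 2 arrays of a sample, both needed. limma 3.58.1 in R 4.3.3 fitted the 3 transfectants together without an intercept (3 residual degrees of freedom, prior degrees of freedom 4.85), two-sided, with p adjusted by Benjamini-Hochberg over all genes tested; the scripts were tested on simulated data. Tests of a ratio against 0 have no separate estimate of the spread among control samples. The 5 genes, the signs and the gene lists were chosen with earlier results of these data known. Named were, per list and comparison with the control, up to 3 called genes with the largest mean ratio on 1 side on 4 of 4 arrays, up to 2 per list between transfectants, and 2 genes most like each member. Alternatives were array scaling and centring, median over spots, complete probes, each dye alone, the sample as a random block, a replicate block, each replicate left out and turned signs. Sequences of the clones were not used here.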

Additional observations from a re-analysis of the deposited data

Results flagged for a closer look

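Several results differed between transfectants. Those of the members were picked out because both samples of one transfectant lay above the control and both of the other below it, and the difference was not tested: ATF4 in Snail against Slug (-1.76 on the log2 scale), ATF4 in Slug against E47 (1.46) and DNAJB2 in Snail against Slug (-1.37).

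The others are pathway genes whose difference passed adjusted p of 0.05 in limma, with the assumed signs. In Snail against Slug, JUND differed by -1.94, JUNB by -1.64, HSPA4, a relative of HSP70, by -1.26, CCT5 by -1.15, MAPKAPK2 by -1.10 and MAPKAPK3 by -1.05. WARS1 differed by -0.93, SLC39A14 by -0.89, P4HB by -0.85 and CCS, the copper chaperone of superoxide dismutase, by -0.80. Higher in Snail were EIF2S1 by 1.16, GSTO1 by 1.16 and PRDX1 by 0.99, all of them genes that fell in Slug against the control. In Snail against E47, JUND differed by -1.18, MAPKAPK3 by -1.06, MAPK9 by -1.0 and P4HB by -0.89. DDIT4 was higher in Slug than in E47 by 1.42. With the arrays scaled to 1 spread, the calls of JUNB, WARS1, CCS and PRDX1 in Snail against Slug and of DDIT4 in Slug against E47 were lost. Of these genes, only JUND in Snail against Slug held with each sample of its comparison left out.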

How the results depend on the processing

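Of the 15 means of a member in a transfectant, recomputed under the alternatives (turned signs aside), 1 changed sign, ATF3 in Snail without Snail replicate 1 (0.09). The median over spots and complete probes could not move a member of 1 clone, and with 2 samples leaving out 1 cannot move a mean past their SD, so these say nothing about stability; DNAJB2 has no complete probe and, in E47, no sample to leave out. Each dye alone (Cy3, then Cy5) moved MT2A to 0.27 and 1.25 in Slug and to 0.10 and 0.91 in Snail, and MT1X in Snail to 0.45 and 1.08. It also moved MT2A in E47 to 1.61 and 1.31. ATF3 moved to 0.08 and 0.42 in E47 and to 0.99 and 1.12 in Slug. ATF4 moved to 0.64 and 0.97 in Slug and to -0.60 and -0.70 in E47. Scaling moved ATF3 in Slug to 0.84 and ATF4 in Slug to 0.64. The counts of pathway genes past the threshold in limma moved more. With the arrays titled Cy3 alone they were 0 in Snail (main 7), 13 in Slug (29), 0 in E47 (8), 2 in Snail against Slug (20), 0 in Snail against E47 (4) and 0 in Slug against E47 (1); the unadjusted counts behind the zeros were 17, 15, 18 and 12. With the arrays titled Cy5 alone they were 19 in Slug, 10 in Snail against Slug, 1 in Snail against E47 and 0 in Slug against E47 (22 unadjusted). Scaling to 1 spread gave 13 in Slug, 12 in Snail against Slug and 0 in Slug against E47 (18 unadjusted). Centring gave 2 in Snail against E47, and probes with a value on all 12 arrays gave 0 in Slug against E47 (22 unadjusted). The 12 arrays with the sample as a random block gave 19 in Snail, 16 in E47, 35 in Snail against Slug, 15 in Snail against E47 and 6 in Slug against E47. The correlation of the 2 arrays of a sample in that fit was 0.02. It thus counts the dye arrays of a sample nearly as separate replicates, which they are not. With 1 sign turned, Snail against E47 gave 9 and Slug against E47 gave 36. Leaving out 1 sample gave 0 to 9 in Snail, 12 to 30 in Slug, 0 to 9 in E47, 5 to 17 in Snail against Slug, 0 to 5 in Snail against E47 and 0 to 1 in Slug against E47; a lone sample was assumed to vary like the other groups. The cause of these shifts was not tested. Deviations of samples with the same number correlated at 0.02 for Snail and Slug, 0.23 for Snail and E47 and -0.06 for Slug and E47. Whether samples of the same number share a batch or culture was not tested, and the labels do not say. With the replicate block the counts were 6, 29, 10, 23, 3 and 1 in the order above.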
